A study of Homo sapiens with 6 samples.

Results

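The MYC, MAX and MXD network was followed in SW480 cells, an established human colon adenocarcinoma line, through the 8 genes of the deposited table whose symbol is MYC, MAX, MXI1, MXD1, MXD3, MXD4, MNT or MGA. The table holds 20289 genes, and each of the 8 symbols matched 1 row. Cells labelled as overexpressing the microprotein MUCP1 with a FLAG tag (MUCP1-FLAG, 3 libraries) were set against cells of wild-type genotype labelled LV-NC (3 libraries). Cells of both groups grew in L-15 medium with serum, and the labels give no further agent, time, clone, passage or batch. Replicates are labelled biological, but what was kept separate between them is not said. A p-value here thus sets the difference between groups only against the spread between these libraries, estimated partly from all tested genes. No row of the table carries the name MUCP1, so its overexpression was not checked here.

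MYC and its relatives are basic helix-loop-helix leucine zipper proteins that bind DNA at E-box sequences, of which CACGTG is the best known form. MYC binds only as a dimer with MAX and then raises transcription of genes for growth, ribosome production and the cell cycle. MXD1, MXI1, MXD3, MXD4 and MNT compete with MYC for MAX and recruit SIN3 and histone deacetylases, which lower transcription from the same sites, while MGA, a very large MAX partner with an added T-box, works in a Polycomb complex called PRC1.6. In colon tumours MYC is a well-known target of the Wnt pathway, which APC mutation keeps active in SW480 cells.

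The start regions of 4 antagonists are shown because MXD3 and MXI1 were the antagonists that passed the test below, while MXD4 and MNT were the members whose window held the CACGTG E-box. Sequences are RefSeq's, on GRCh38.p14, read 5′ to 3′ on the strand of the gene. Each is the part of the 250 bases before a RefSeq start that lies outside the exons of that gene in GENCODE release 29, and for MXI1 the most upstream of its windows was taken. Capitals mark CACGTG, which reads the same on both strands.
MXD3, chr5:177312758-177313002 (minus strand): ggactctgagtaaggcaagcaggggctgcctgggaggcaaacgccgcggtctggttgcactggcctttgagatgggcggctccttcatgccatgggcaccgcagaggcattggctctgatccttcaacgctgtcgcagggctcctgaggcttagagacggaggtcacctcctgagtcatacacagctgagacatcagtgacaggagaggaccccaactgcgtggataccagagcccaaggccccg
MXI1, chr10:110207355-110207604 (plus strand): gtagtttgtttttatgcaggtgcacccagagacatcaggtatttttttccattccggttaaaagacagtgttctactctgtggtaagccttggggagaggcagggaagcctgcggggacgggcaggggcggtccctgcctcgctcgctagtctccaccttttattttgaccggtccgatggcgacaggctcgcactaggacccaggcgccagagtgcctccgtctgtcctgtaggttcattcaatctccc
MXD4, chr4:2262295-2262359 (minus strand): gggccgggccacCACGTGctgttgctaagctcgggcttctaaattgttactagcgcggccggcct
MNT, chr17:2401119-2401310 (minus strand): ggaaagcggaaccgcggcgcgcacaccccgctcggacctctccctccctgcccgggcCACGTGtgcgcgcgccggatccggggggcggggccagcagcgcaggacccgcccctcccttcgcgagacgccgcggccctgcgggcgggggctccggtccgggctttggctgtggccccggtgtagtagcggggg

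RefSeq windows were at hand for 7 members, 12 windows in all. CACGTG was found in 2 of the 12, those of MXD4 (238 bases before the RefSeq start) and MNT (193 bases before it), against 6.34% of 35116 windows of the same length over all genes. GENCODE exons of both genes reach into these windows, so the stretches printed above end before the RefSeq start. CACGCG, a lesser E-box form searched on both strands, was in 1 window, of MGA, against 9.72% of all windows. TTTGGCGC, a form of the E2F site, was in 1 window, also of MGA, against 0.55%, and TTTCCCGC, another form, was in none, against 1.39%. A match is a string of letters in a window and not a measured binding site.

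Reads totalled 17333329 to 23282604 per library over the 20289 genes. Of the colon epithelium markers, 7 of 10 had a mean above 1 FPKM (reads scaled for gene length and library size, as deposited by the authors), among them EPCAM, KRT8, KRT18, KRT19 and CDX2, while CDX1 was listed at 0 in all libraries and KRT20 and CEACAM5 at 0.14 FPKM or below. The summed markers of colon epithelium were 4183 to 4312 FPKM in MUCP1-FLAG and 3936 to 4309 FPKM in LV-NC. Most of this sum was KRT8 and KRT18. KRT18 was higher in each MUCP1-FLAG library than in any LV-NC library. It had 1711.81, 1776.12 and 1757.69 FPKM in MUCP1-FLAG, against 1689.88, 1616.02 and 1562.18 FPKM in LV-NC. Going the other way, 2 markers of the list were lower in each MUCP1-FLAG library than in any LV-NC library. Among the 12920 genes tested below, FPKM of the groups did not overlap for 29.8%. The E-cadherin gene CDH1 had 3.47, 3.30 and 3.61 FPKM in MUCP1-FLAG, against 6.56, 7.95 and 6.72 FPKM in LV-NC (log2 fold change −1.06 ± 0.08, edgeR adjusted p 3.26e-09). The adhesion gene EPCAM had 128 to 133 FPKM in MUCP1-FLAG and 161 to 173 FPKM in LV-NC (−0.33 ± 0.05, 3.51e-05), and the part of these falls in the results below was not tested. Fibroblast markers summed to at most 0.43 FPKM, endothelial markers to 0.47 FPKM, and markers of HEK293 packaging cells to 0.97 FPKM in any library. The 7 blood markers summed to 2.58 to 3.41 FPKM in MUCP1-FLAG and 0.67 to 2.67 FPKM in LV-NC. The globin gene HBA1 had 2.57, 2.41 and 1.95 FPKM in MUCP1-FLAG and 0, 1.64 and 1.47 FPKM in LV-NC, while the leukocyte gene PTPRC was listed at 0 in every library, and the part of this signal in the results below was not tested.

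MYC led the network by level and fell slightly in MUCP1-FLAG cells, MXI1 fell, and the scarce MXD3 rose 2.08-fold. All 8 members had enough reads to be tested, and 3 passed: MXD3 was higher, and MYC and MXI1 were lower. Over all 12920 genes tested with edgeR's quasi-likelihood test, 16.1% passed at an adjusted p under 0.05, 8.35% higher and 7.71% lower in MUCP1-FLAG. The members had a median log2 fold change of 0.0030, and all tested genes one of −0.0042. With 8 genes, 3 calls give no separate measure of how the network as a whole differs from other genes. In RNA from bulk cultures, fewer cells of a kind and less RNA per cell cannot be told apart.

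**Figure D1:**
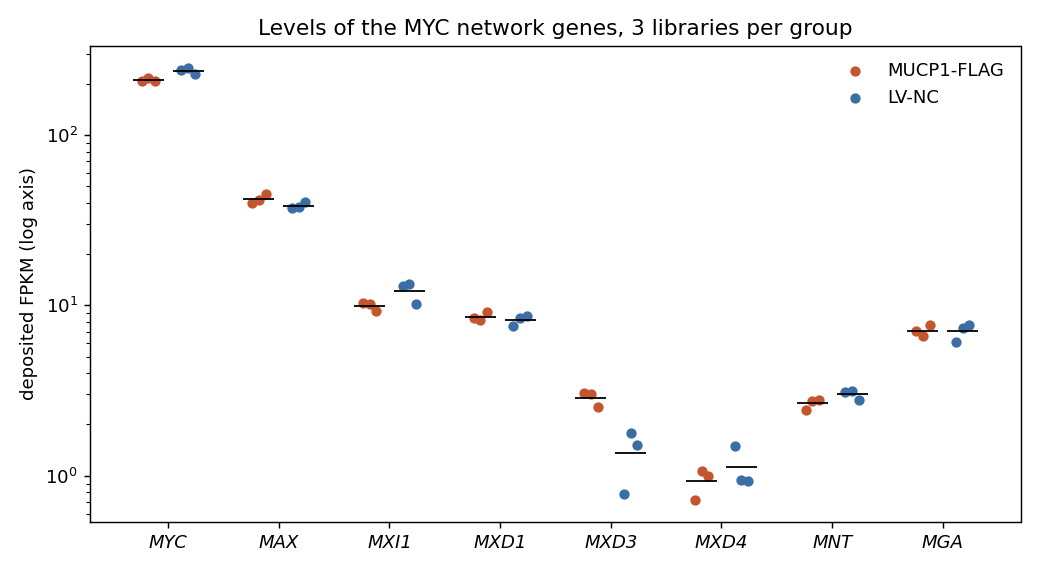
Deposited FPKM (log axis) of each member in the 3 MUCP1-FLAG libraries (left, red) and the 3 LV-NC libraries (right, blue), with the mean as a line. MYC stands at 206.21 FPKM or above, MAX between 37.28 and 44.78, and MXD4 has the lowest mean in both groups, with MXD3 higher in each MUCP1-FLAG library than in any LV-NC library.

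MYC (ENSG00000136997, GRCh38 chromosome 8, 127735434 to 127741434, plus strand) had 206.21, 214.78 and 208.85 FPKM in MUCP1-FLAG libraries, against 240.12, 248.87 and 226.97 FPKM in LV-NC libraries. Every MUCP1-FLAG library was below every LV-NC library, on the FPKM scale and in CPM, read counts scaled to a common library size with TMM factors. MYC averaged 448 ± 6.98 CPM in MUCP1-FLAG and 509 ± 22.5 CPM in LV-NC (SD, n = 3 each). Its log2 fold change was −0.18 ± 0.04 (SE, edgeR adjusted p 0.0071), so that the level fell by 11.9%. By FPKM, MYC ranked 319 in MUCP1-FLAG and 257 in LV-NC among the 12920 genes tested. The call rested on narrow margins: the adjusted p was 0.0519 without MUCP1-FLAG replicate 3 and 0.0747 without LV-NC replicate 2, with log2 fold changes of −0.18 and −0.16. Without LV-NC replicate 3 the adjusted p was 1.47e-04, with a log2 fold change of −0.22. No other annotated gene overlaps MYC in GENCODE release 29.

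MAX, the shared dimer partner of MYC and of its antagonists, had 40.06, 41.48 and 44.78 FPKM in MUCP1-FLAG libraries, against 37.28, 37.61 and 40.33 FPKM in LV-NC libraries. On the CPM scale the groups stood just apart, at 60.99 CPM or above in MUCP1-FLAG and 60.86 CPM or below in LV-NC, and on the FPKM scale they overlapped. Its log2 fold change was 0.13 ± 0.06, with a 95% interval of 0.0007 to 0.25, and it did not pass the test (edgeR adjusted p 0.167). The interval thus reached from almost no difference to a rise of 0.25. CPM values of the groups stood apart for 4 of the 8 members, MYC, MAX, MXI1 and MXD3, where 33.1% of all tested genes did so. In FPKM they stood apart for 3 of the 8, MYC, MXD3 and MNT, beside 29.8% of all tested genes.

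The level of MYC relative to MAX was lower in MUCP1-FLAG. The ratio of MYC to MAX FPKM was 5.15, 5.18 and 4.66 in MUCP1-FLAG libraries, against 6.44, 6.62 and 5.63 in LV-NC libraries. The mean ratio was 5.00 ± 0.29 in MUCP1-FLAG and 6.23 ± 0.53 in LV-NC (SD, n = 3 each), and the groups did not overlap. These are ratios of mRNA levels, given as a description with no test. MYC FPKM alone also stood apart between the groups.

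**Figure D2:**
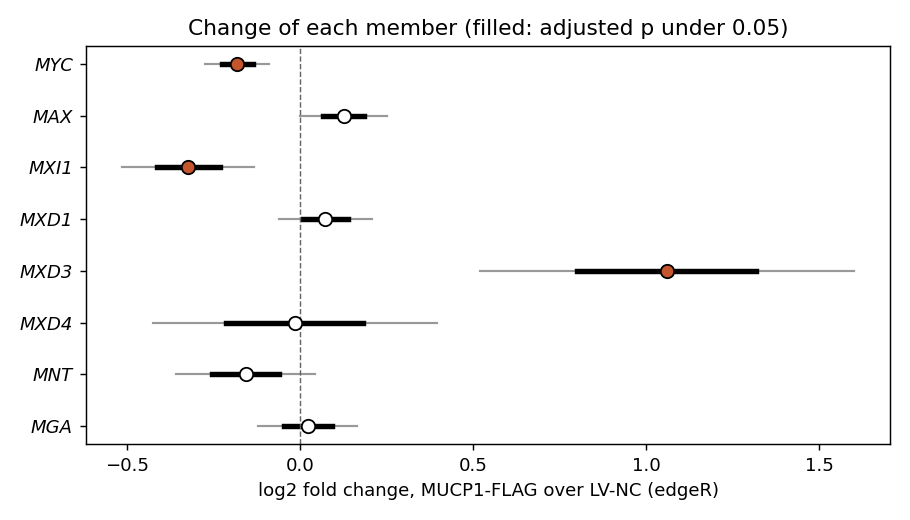
Log2 fold change of each member, MUCP1-FLAG over LV-NC, from edgeR on the deposited counts. Thick bars are ± 1 SE, thin bars the 95% interval, and filled points passed an adjusted p of 0.05: MXD3 at 1.06, MYC at −0.18 and MXI1 at −0.32.

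MXD3 was the member with the largest change. It encodes the MXD protein whose mouse counterpart is made in proliferating cells, in S phase. MXD3 (ENSG00000213347, chromosome 5, 177301461 to 177312757, minus strand) had 62, 90 and 60 reads in MUCP1-FLAG libraries, against 17, 51 and 34 reads in LV-NC libraries. Per length these were 3.05, 3.02 and 2.53 FPKM in MUCP1-FLAG and 0.78, 1.79 and 1.52 FPKM in LV-NC. All 3 MUCP1-FLAG libraries were above all 3 LV-NC libraries, and LV-NC replicate 1 was the lowest of all. MXD3 averaged 3.53 ± 0.42 CPM in MUCP1-FLAG and 1.68 ± 0.74 CPM in LV-NC (SD, n = 3 each), a 2.08-fold rise.

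The log2 fold change of MXD3 was 1.06 ± 0.26 (edgeR adjusted p 0.0074), with a 95% interval of 0.52 to 1.6. It kept its call with every single library left out, at 0.76 to 1.40, the lowest without LV-NC replicate 1 and the highest without LV-NC replicate 2. The low read numbers limit its precision. The gene also shares 22.5% of its annotated exonic bases with PRELID1, on the opposite strand, and 18% with RAB24 on the same strand. Neither counting by strand nor the handling of reads shared by genes is known from the labels. Reads in the shared bases may therefore come from any of these genes or be missing from the count.

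PRELID1, which encodes a mitochondrial lipid carrier, averaged 322 ± 4.97 CPM in MUCP1-FLAG and 283 ± 18.5 CPM in LV-NC (SD, n = 3 each). Its log2 fold change was 0.18 ± 0.05 (edgeR adjusted p 0.0126), in the direction of MXD3 and smaller. RAB24, a small GTPase gene, had 18.2 ± 0.37 CPM in MUCP1-FLAG and 17.1 ± 1.15 CPM in LV-NC, and its log2 fold change was 0.09 ± 0.09 (edgeR, adjusted p 0.512). The part of reads from these genes in the MXD3 counts was not tested.

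MXI1, the antagonist also known as MXD2, moved the other way. MXI1 (ENSG00000119950, chromosome 10, 110207605 to 110287365, plus strand) had 16.9, 18.0 and 15.5 CPM in MUCP1-FLAG libraries, against 21.7, 22.7 and 18.7 CPM in LV-NC libraries. The groups stood apart in CPM. In FPKM they met, at 10.30, 10.18 and 9.25 in MUCP1-FLAG and 12.94, 13.30 and 10.18 in LV-NC, where LV-NC replicate 3 was the low one. The log2 fold change was −0.32 ± 0.09 (edgeR adjusted p 0.0183), and the level fell by 20.1%. The adjusted p was 0.116 without MUCP1-FLAG replicate 3, 0.123 without LV-NC replicate 2, 0.0502 with DESeq2 and 0.142 with limma on log2(FPKM + 1), each with the gene still lower. Without LV-NC replicate 3 the edgeR adjusted p was 0.00179, with a log2 fold change of −0.40. RefSeq gives MXI1 3 start windows, and a count per gene does not tell the transcripts apart.

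The other MXD genes did not pass. MXD1, the founding antagonist, which rises when many cell types differentiate, had 8.48, 8.20 and 9.09 FPKM in MUCP1-FLAG libraries, against 7.58, 8.43 and 8.71 FPKM in LV-NC libraries, and the groups overlapped. Its log2 fold change was 0.07 ± 0.06 (edgeR adjusted p 0.494, 95% interval −0.06 to 0.21). MXD4 was scarce, with 48, 96 and 75 reads in MUCP1-FLAG libraries, against 86, 78 and 56 reads in LV-NC libraries. Its log2 fold change of −0.02 ± 0.20 had a 95% interval of −0.43 to 0.39, so a change of the size seen for MXI1 lay within it.

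Counts and FPKM of MXD4 gave different fold changes. The gene length implied by its count, its FPKM and the library total varied between libraries with a coefficient of variation of 11.1%, against 0.057% for MNT and 1.27% for MYC, and ran from 2997 to 3882 bases. On the log2(FPKM + 0.1) scale its log2 fold change was −0.24, and in the authors' deposited table −0.28. The corresponding coefficient of variation was 5.70% for MXD3, 4.82% for MGA, 4.68% for MXI1, 4.28% for MAX and 1.44% for MXD1. The implied length was 1139 to 1323 bases for MXD3, against 5154 annotated exonic bases. For MXD1 it was 5388 to 5552 bases, against 6351. Shares and orders of genes by FPKM depend on these lengths.

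Within the MXD genes the mix shifted while the sum stayed in the same range. MXD1, MXI1, MXD3 and MXD4 together had 22.6, 22.5 and 21.9 FPKM in MUCP1-FLAG libraries, against 22.8, 24.5 and 21.3 FPKM in LV-NC libraries, and the groups overlapped. MXD3 made up 13.5%, 13.4% and 11.6% of that sum in MUCP1-FLAG libraries, against 3.42%, 7.32% and 7.12% in LV-NC libraries. MXI1 made up 44.4% ± 1.84 in MUCP1-FLAG and 52.9% ± 4.69 in LV-NC, and MXD1 38.6% ± 2.68 in MUCP1-FLAG and 36.2% ± 4.06 in LV-NC (SD, n = 3 each). The groups stood apart for the shares of MXD3 and MXI1 and overlapped for that of MXD1. Shares of the same sum are tied, so a higher MXD3 lowers the share of MXI1, whose FPKM alone overlapped. These shares restate the MXD3 and MXI1 values above and are no separate evidence. Set against MYC, the summed MXD genes were 10.9%, 10.5% and 10.5% of its FPKM in MUCP1-FLAG libraries and 9.50%, 9.83% and 9.40% in LV-NC libraries, which did not overlap. The sum itself had a mean of 22.3 FPKM in MUCP1-FLAG and 22.9 FPKM in LV-NC. The higher percentage thus restates the lower MYC level it was divided by. How often shares or ratios of other genes stand apart was not computed. A sum of mRNA levels weighs the 4 genes alike and says nothing of protein.

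**Figure D3:**
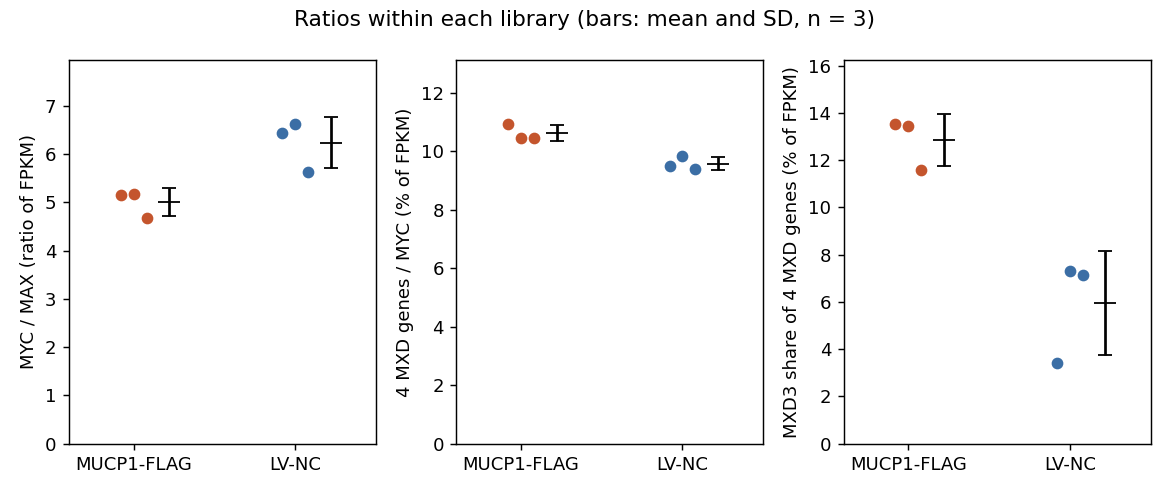
Ratio of MYC to MAX FPKM, the sum of MXD1, MXI1, MXD3 and MXD4 as a percent of MYC FPKM, and the share of MXD3 in that sum, for each library of MUCP1-FLAG (left) and LV-NC (right), with mean and SD beside the points. In each panel the 3 MUCP1-FLAG points do not overlap the 3 LV-NC points: lower for MYC to MAX, higher for the other 2 measures. The MXD sum alone overlapped between the groups, while MYC alone stood apart.

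MNT, the antagonist made in most cell types and found beside MYC in growing cells, had 2.44, 2.76 and 2.79 FPKM in MUCP1-FLAG libraries, against 3.09, 3.14 and 2.80 FPKM in LV-NC libraries. The groups stood apart in FPKM by 0.01 between the nearest libraries and overlapped in CPM. The log2 fold change was −0.16 ± 0.10 (edgeR adjusted p 0.293, 95% interval −0.36 to 0.04). MNT shares 12.2% of its exonic bases with an antisense transcript that the deposited table does not list.

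MGA had 1330, 1589 and 1578 reads in MUCP1-FLAG libraries, against 1326, 1572 and 1557 reads in LV-NC libraries. These came to 7.10 ± 0.51 FPKM in MUCP1-FLAG and 7.04 ± 0.86 FPKM in LV-NC (SD, n = 3 each). The log2 fold change was 0.02 ± 0.07, and its 95% interval of −0.12 to 0.17 does not reach the change measured for MXI1. It did not pass the test (edgeR adjusted p 0.867).

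By FPKM the order in MUCP1-FLAG was MYC, MAX, MXI1, MXD1, MGA, MXD3, MNT and MXD4, and in LV-NC MYC, MAX, MXI1, MXD1, MGA, MNT, MXD3 and MXD4. Neighbours in the order stood apart in all libraries of a group except MXD3 and MNT in MUCP1-FLAG, and MXD1 and MGA, and MXD3 and MXD4, in LV-NC. MXD3 thus overlapped MNT in MUCP1-FLAG cells and MXD4 in LV-NC cells.

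In the authors' deposited table the log2 fold changes were −0.18 for MYC, with an adjusted p of 0.00136, 1.07 for MXD3 with 0.0162, and −0.29 for MXI1 with 0.0637. There MXI1 was therefore above 0.05, and the other 5 members had adjusted p-values of 0.338 or more.

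The genes whose pattern over the 6 libraries was most like that of each called member were found by the root-mean-square distance between centred log2 CPM values. For MYC these were CTSL, which encodes the lysosomal protease cathepsin L (distance 0.0123), DNAJC1, an endoplasmic reticulum co-chaperone gene (0.0168), and SRXN1, which encodes the antioxidant enzyme sulfiredoxin (0.0170), where the spread of MYC itself was 0.0991. For MXI1 they were GRAMD2B (0.0358), the choline transporter gene SLC44A2 (0.0363) and DRAXIN, an axon guidance gene (0.0498), where MXI1 itself spread by 0.191. For MXD3 the nearest were farther off, SMCO2 at 0.156, MYOCD at 0.213 and PRR20C at 0.243, each at or below 1.79 CPM on average in either group, where MXD3 itself spread by 0.691. Likeness over 6 libraries is a description and carries no test.

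The corepressors that MXD and MNT proteins recruit were called about as often as all genes. Of 18 tested SIN3 and histone deacetylase corepressor genes, NCOR1 among them, 2 were higher and 1 lower in MUCP1-FLAG, or 16.7%, beside 16.1% of all genes. Their median log2 fold change was −0.02. The histone-binding subunit gene RBBP7 rose to 358 CPM in MUCP1-FLAG, against 316 CPM in LV-NC (log2 fold change 0.18 ± 0.04, edgeR adjusted p 0.0051). SAP130, a scaffold subunit gene, rose by 0.19 ± 0.06 (log2, adjusted p 0.0284), and SAP30L, a SIN3-binding subunit gene, fell, with −0.20 ± 0.06 (0.0261). RBBP4, close in sequence to RBBP7, had 0.09 ± 0.05 (0.196). The calls of SAP130 and SAP30L were lost without MUCP1-FLAG replicate 2 (adjusted p 0.156 and 0.122) or LV-NC replicate 2 (0.0805 and 0.117), that of SAP130 also without MUCP1-FLAG replicate 3 (0.109), and that of SAP30L without MUCP1-FLAG replicate 1 (0.0855).

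Of 10 tested partners of MGA in PRC1.6, 1 was higher and 0 lower, or 10%, beside 16.1% of all genes. TFDP1, the dimer partner of E2F factors, was higher by 0.16 ± 0.05 in log2 terms (edgeR adjusted p 0.0188), and this call was lost without MUCP1-FLAG replicate 2 (0.0874), MUCP1-FLAG replicate 3 (0.099) or LV-NC replicate 2 (0.142). E2F6, the repressor of the E2F family in this complex, had −0.16 ± 0.06 (0.0885, and 0.0439 without LV-NC replicate 1). The ring finger gene RING1 and its binding partner RYBP had −0.14 ± 0.08 (0.253) and −0.13 ± 0.07 (0.223). The median of the complex was 0.03.

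Genes that PRC1.6 with MGA keeps silent in mouse embryonic stem cells are germline genes, and most were at or near 0 in these cells. Of 13 listed, 10 had any read and 4 were tested. Of these 4, 0 passed with edgeR or DESeq2, beside 16.1% of all genes with edgeR. Likewise 0 had an unadjusted edgeR p under 0.05, beside 3797 of all 12920 tested genes. With 4 genes, 0 calls do not set the list apart from all genes. TDRKH, a piRNA pathway gene, had 17.6 ± 0.04 CPM in MUCP1-FLAG and 17.4 ± 1.10 CPM in LV-NC (SD, n = 3 each), and STAG3, a meiotic cohesin gene, 3.67 CPM in MUCP1-FLAG and 3.94 CPM in LV-NC. The log2 fold changes of STK31 and SYCE2 were −0.43 ± 0.26 and −0.47 ± 0.43 (edgeR adjusted p 0.288 and 0.512). DAZL, DDX4 and SLC25A31 had 0 reads in every library. In the RefSeq windows CACGTG was found for 6 of the 13 germline genes, or 46.2%, against 7.73% of 27305 genes. The 13 were chosen as genes silenced with MGA, so this share is no separate evidence.

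Other E-box factors with this type of DNA-binding domain were not called, nor was the zinc finger gene ZBTB17, which encodes the MYC partner MIZ1. Of 7 tested genes, 0 passed with edgeR or DESeq2, beside 16.1% of all genes with edgeR. An unadjusted edgeR p under 0.05 was found for 0 of the 7, beside 3797 of all 12920 tested genes. So few genes do not set this list apart from all genes. MLX, the MAX-like partner of the glucose-sensing MLXIP and MLXIPL, had 0.10 ± 0.06 on the log2 scale (adjusted p 0.271), and MLXIPL −0.23 ± 0.19 (0.453). The general E-box factors USF1 and USF2 had 0.15 ± 0.09 (0.299) and −0.02 ± 0.05 (0.857). The MYC paralogue MYCN had 5 reads over all libraries and was not tested.

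Among 13 tested coactivators through which MYC raises transcription, 1 was higher and 1 lower, or 15.4% beside 16.1% of all genes, and their log2 fold changes had a median of −0.03. The acetyltransferase gene KAT2A fell to 59.9 CPM in MUCP1-FLAG, against 70.5 CPM in LV-NC (−0.24 ± 0.06, edgeR adjusted p 0.0149). CDK9, the elongation kinase, rose by 0.20 ± 0.07 (0.0455). EP400 and ACTL6A, of the NuA4 complex, had −0.13 ± 0.05 (0.107) and 0.11 ± 0.05 (0.146). KAT2A was not called without MUCP1-FLAG replicate 2 (0.11), and CDK9 was not called without LV-NC replicate 2 or any 1 of the MUCP1-FLAG libraries (0.0514 to 0.204), nor with genes kept only at 50 counts or more in 3 libraries (0.0503).

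Of 14 tested genes that act on the stability of the MYC protein, 1 was higher and 0 lower, or 7.14% beside 16.1% of all genes. AURKA, a mitotic kinase known to shield MYC family proteins from degradation, rose by 0.18 ± 0.05 (edgeR adjusted p 0.0199). The ubiquitin ligase gene SKP2 had 0.23 ± 0.08 (0.0546) and the phosphatase inhibitor gene SET 0.08 ± 0.04 (0.189). AURKA was not called without MUCP1-FLAG replicate 2 (0.131), MUCP1-FLAG replicate 3 (0.116) or LV-NC replicate 2 (0.0956), and SKP2 was called without MUCP1-FLAG replicate 1 (0.049) or LV-NC replicate 3 (0.0184). With limma on either FPKM scale none of RBBP7, SAP130, SAP30L, TFDP1, KAT2A, CDK9 and AURKA passed, with adjusted p-values of 0.0536 (RBBP7) to 0.224 (SAP30L), and with DESeq2 SAP30L and CDK9 did not (0.0505 and 0.0947).

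**Figure D4:**
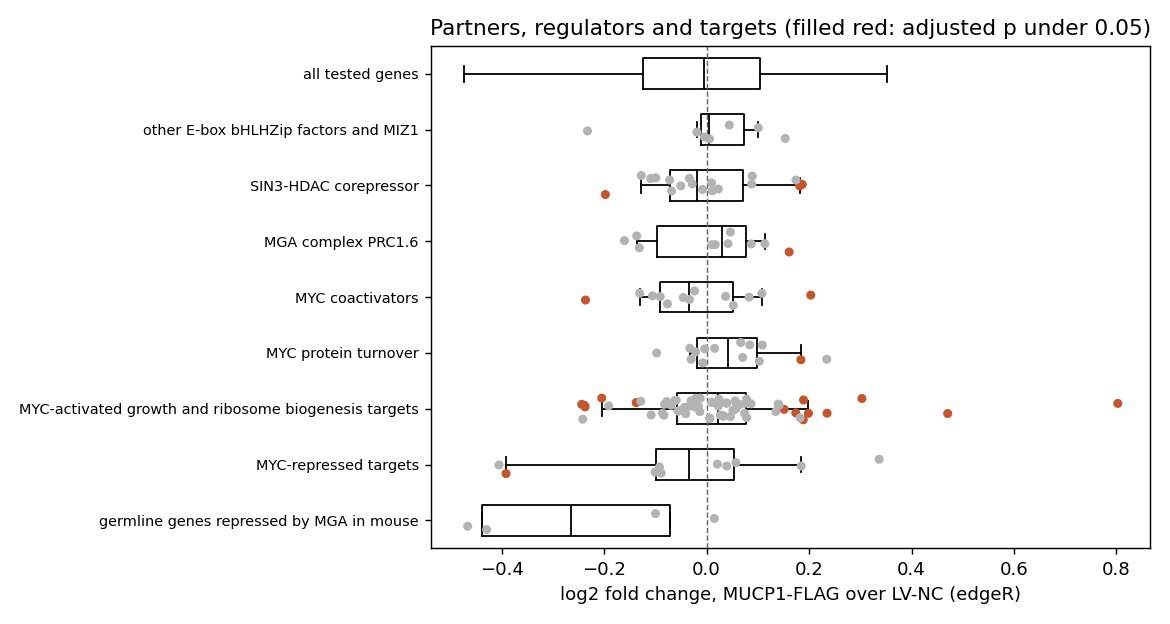
Log2 fold change, MUCP1-FLAG over LV-NC, of all tested genes and of the tested genes of each list. Boxes give the quartiles and median, whiskers the 5th and 95th percentiles, and points single genes, red where the adjusted p was under 0.05. The medians of the lists lie near 0, between −0.03 and 0.04, except for the 4 tested germline genes at −0.26.

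Targets that MYC is known to raise did not move one way. Of 63 tested genes of growth, ribosome production and the cell cycle, 9 were higher and 5 lower in MUCP1-FLAG, or 22.2% beside 16.1% of all genes, and 36 had a positive and 27 a negative log2 fold change. The median was 0.02, beside −0.0042 for all tested genes. TMEM97, which encodes a sterol-binding membrane protein and is also a known target of SREBP factors, rose most. It had 68.9, 66.6 and 70.7 CPM in MUCP1-FLAG libraries, against 40.2, 39.6 and 38.4 CPM in LV-NC libraries (log2 fold change 0.80 ± 0.06, edgeR adjusted p 4.39e-09).

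PLK1, a mitotic kinase gene, rose to 64.4 ± 1.95 CPM in MUCP1-FLAG, against 52.3 ± 3.48 CPM in LV-NC (SD, n = 3 each), and the nucleoside transporter gene SLC29A2 to 25.3 ± 3.56 CPM, against 18.3 ± 1.18 CPM. Their log2 fold changes were 0.30 ± 0.06 and 0.47 ± 0.10 (edgeR adjusted p 0.0017 and 0.0018). CAD, the opening enzyme of pyrimidine synthesis and a classical E-box target of MYC, fell to 170 CPM in MUCP1-FLAG, against 201 CPM in LV-NC (−0.24 ± 0.05, 0.0019).

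The other called targets are named after their values were seen. The higher ones were ODC1, the polyamine enzyme (0.20 ± 0.04), the replicative helicase subunit MCM4 (0.19 ± 0.04), the centriole kinase PLK4 (0.24 ± 0.06), the cell cycle kinase CDK4 (0.17 ± 0.05), the uracil glycosylase UNG (0.19 ± 0.06) and prohibitin, PHB1 (0.15 ± 0.05). The lower ones were the sorbitol dehydrogenase SORD (−0.24 ± 0.05), hexokinase HK2 (−0.20 ± 0.05), RABEPK (−0.24 ± 0.07) and the nucleolar protein NOP58 (−0.14 ± 0.05). ODC1 and CAD, both textbook E-box targets, differed in direction, a pair set side by side after the values were seen. The numbers higher were 5 without MUCP1-FLAG replicate 1, MUCP1-FLAG replicate 2 or LV-NC replicate 2, and the number lower was 2 without MUCP1-FLAG replicate 1. With limma on FPKM, 3 were higher and 4 lower, and PLK1 did not pass (0.25 on the log2(FPKM + 1) scale). CACGTG was found in the RefSeq windows of 17 of 53 target genes with a window, or 32.1%, against 7.73% of all 27305 genes. The list was chosen as known MYC targets and all genes include unexpressed ones, so this share is no separate evidence.

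Of 10 tested genes that MYC is known to repress, 0 were higher and 1 lower, or 10% beside 16.1% of all genes, and the median of their log2 fold changes was −0.03. THBS1, the angiogenesis inhibitor thrombospondin, fell to 37.8 ± 2.41 CPM in MUCP1-FLAG, against 49.5 ± 3.46 CPM in LV-NC (SD, n = 3 each), a log2 difference of −0.39 ± 0.07 (edgeR adjusted p 0.000498). The cell cycle inhibitor gene CDKN1B had 0.18 ± 0.07 (0.0775), CEBPA −0.41 ± 0.17 (0.107) and NDRG1 −0.10 ± 0.05 (0.199). Without LV-NC replicate 3 the number lower was 3, NDRG1 among them (0.0174).

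**Figure D5:**
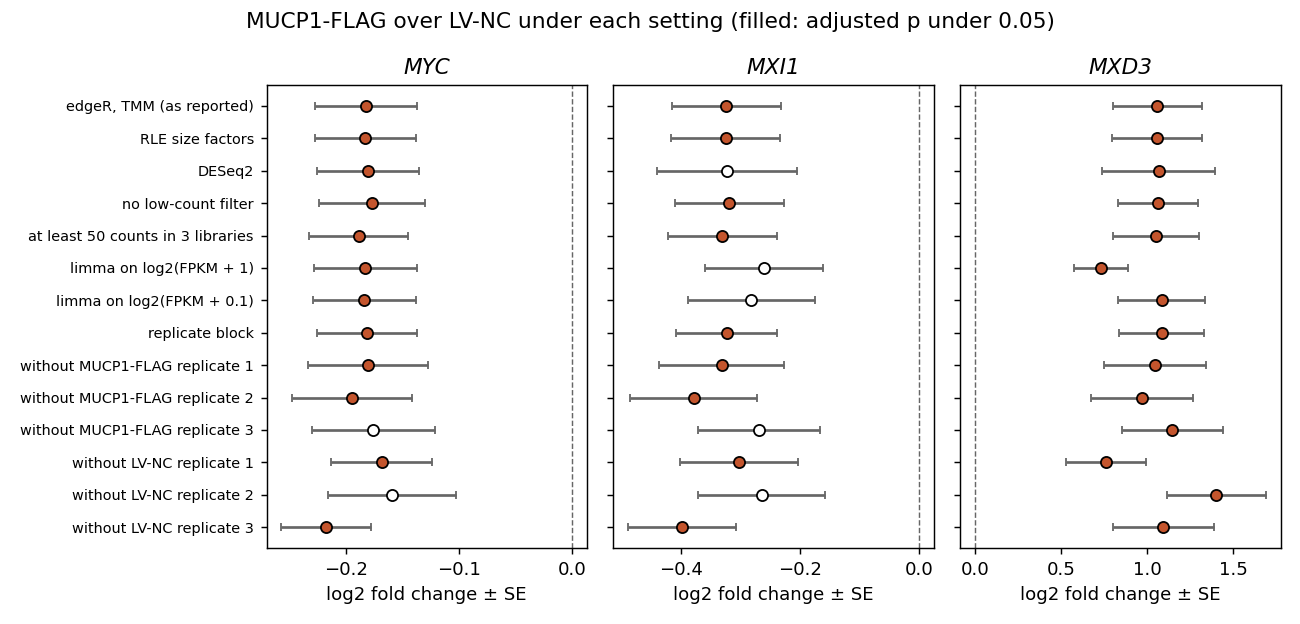
Log2 fold change ± SE of MYC, MXI1 and MXD3 under each way of testing and with each library left out, with filled points where the adjusted p was under 0.05. The direction held for the 3 genes in all settings drawn. MXD3 was filled throughout, MYC was open without MUCP1-FLAG replicate 3 and without LV-NC replicate 2, and MXI1 was open in 5 settings.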

How the data were processed

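RNA of 3 MUCP1-FLAG and 3 LV-NC cultures of SW480 cells was sequenced after an mRNA library kit. Per the submitters' processing notes, the build was GRCh38 and the tools included DESeq2, featureCounts, fastp and HISAT2, with no version or role for any of them. The deposited table holds raw counts (whole numbers) and FPKM for each library, and the authors' comparison with group means, a log2 fold change, a p-value and an adjusted p-value, whose test is not stated. Members were taken by symbol, and they and the gene lists were chosen with earlier results of these data known.

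Counts were tested with edgeR 4.0.16 in R 4.3.3 (filterByExpr with a minimum count of 10, TMM factors, robust quasi-likelihood F test), with Benjamini-Hochberg adjustment over 12920 genes and a threshold of 0.05. A standard error is the fold change divided by the root of F. Totals of 17333329 to 23282604 reads set the counting precision. The steps were tested on simulated data. Alternatives were RLE factors, DESeq2 1.42.0, no or a stricter filter (50 counts in 3 libraries), limma 3.58.1 on log2(FPKM + 1) and log2(FPKM + 0.1), a replicate block, and leaving out each library. Named genes were the members, from each list the 4 with the lowest adjusted p, and the 3 nearest in pattern to each called member. Genes outside this rule are said to be so where they appear, or are named as neighbours of MXD3 or as untested. Cell type markers and ZBTB17 also lie outside it. Of the colon epithelium markers, KRT18, CDH1 and EPCAM are detailed because their groups stood apart.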

Additional observations from a re-analysis of the deposited data

How the results depend on the processing

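The 8 members kept their direction wherever they passed the test, and 1 member, MXD3, was higher under every alternative. The number lower was 1 with DESeq2 and with limma on either FPKM scale, and 0 to 2 when single libraries were left out, with 0 without MUCP1-FLAG replicate 3 or LV-NC replicate 2. The cause was not tested. Over all genes, limma on log2(FPKM + 1) called 514 higher and 544 lower, and on log2(FPKM + 0.1) 516 and 549. With single libraries left out the range was 639 to 1323 higher and 624 to 1213 lower. The smallest numbers were without MUCP1-FLAG replicate 3 and the largest without LV-NC replicate 3, with 671 higher without LV-NC replicate 2. Between replicates, counts of LV-NC 1 and 3 differed most (chi-square 8.22 per degree of freedom), beside at most 4.84 for any other pair within a group. Of the targets that MYC raises, 3 were higher with limma on either FPKM scale, and 5 to 13 higher and 2 to 4 lower with single libraries left out. Of the targets it represses, 1 to 3 were lower with a library left out. Results that answer a comparison differed by over 1.5 times from the reported count in 19 cases and stayed within it in 85. The median log2 fold change of all genes moved by less than 0.1 under each scaling. Samples that share a replicate number were at most weakly correlated in their deviations (r of 0.035, 0.050 and 0.0024 across genes). Replicates 1 and 2 each correlated best with their own number, while replicate 3 of each group correlated slightly better with another number. As every r was 0.050 or below, the numbers were not taken as pairs. With the replicate block 1005 genes were higher and 954 lower, and 1 member higher and 2 lower. With that block CDK9 was not called (adjusted p 0.065). Low read numbers limit MXD3 and MXD4.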
